A study of Homo sapiens with 16 samples.

Results

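The core circadian clock of human cells is built from a small set of transcription factors and their inhibitors, and 10 of its genes were followed: ARNTL, CLOCK, NPAS2, PER1, PER2, PER3, CRY1, CRY2, NR1D1 and NR1D2. They were taken by name from the 63655 genes of the FPKM table (read level per length and depth) and matched by Ensembl identifier to the read counts. No measured value entered that rule, but the list was chosen with earlier results of these data known. All 10 passed the filter on low counts that left 17464 genes for testing.

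The 16 libraries came from SW620 and SW480, human colon cancer cell lines grown in DMEM with serum. SW620 was sequenced in 5 groups: carrying transduced ERB (estrogen receptor beta, encoded by ESR2) with 10 nM estradiol for 24 h, carrying ERB with the solvent DMSO for 24 h, carrying ERB without treatment, carrying an empty vector, and as untransduced parental cells. SW480 was sequenced in 3 groups, with ERB, with empty vector and as parental cells. Each group held 2 libraries, numbered I and II in the labels, and values are given in that order. Whether the replicates are separate cultures is not stated in the labels, and the p-values therefore describe the spread between libraries, which may be technical. The promoter that drives ERB, and whether a transduced line was a pool or 1 clone, are absent from the labels, as is the time of day at which cells were collected.

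In the circadian loop, ARNTL (BMAL1) pairs with CLOCK or with its relative NPAS2 and activates genes through E-boxes in their promoters. The PER and CRY proteins are among the products and inhibit that activator, which closes the loop. The nuclear receptors NR1D1 and NR1D2 (REV-ERB alpha and beta) repress ARNTL through ROR elements, which the activating ROR receptors also bind. PAR bZip factors such as DBP, and the repressor NFIL3, act on D-boxes. In cultured cells that have not been synchronised, single cells cycle out of phase, so bulk RNA gives a level averaged over phases.

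The starts of the 10 genes gave 15 windows of 300 bases, from 250 bases before to 50 bases after a start, in the RefSeq table of build GRCh38.p14. These elements were searched on both strands: the E-box CACGTG, the D-box TTATGTAA or TTACGTAA, the ROR element (AANT followed by AGGTCA or GGGTCA), and the estrogen response element (GGTCA and TGACC with 3 bases between them). NPAS2, CRY1, CRY2 and NR1D1 had no match in any window, and PER1 and PER3 had a window with a match that is not printed. Of the windows with a match, those of NR1D2, ARNTL, CLOCK and PER2 are printed 5′ to 3′ along the gene, with matches in capitals. They lie at chr3:23945871-23946170 (plus strand, NR1D2), chr11:13277540-13277839 (plus strand, ARNTL), chr4:55545883-55546182 (minus strand, CLOCK) and chr2:238288561-238288860 (minus strand, PER2). For NR1D2, ARNTL and CLOCK another start had a window of its own, which held none of these elements.
NR1D2: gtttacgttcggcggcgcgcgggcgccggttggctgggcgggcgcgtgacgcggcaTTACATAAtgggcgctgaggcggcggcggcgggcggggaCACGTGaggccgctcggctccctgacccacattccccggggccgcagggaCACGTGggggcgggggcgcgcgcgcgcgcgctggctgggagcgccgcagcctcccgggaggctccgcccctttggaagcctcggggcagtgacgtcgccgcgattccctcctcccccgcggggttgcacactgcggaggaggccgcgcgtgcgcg
ARNTL: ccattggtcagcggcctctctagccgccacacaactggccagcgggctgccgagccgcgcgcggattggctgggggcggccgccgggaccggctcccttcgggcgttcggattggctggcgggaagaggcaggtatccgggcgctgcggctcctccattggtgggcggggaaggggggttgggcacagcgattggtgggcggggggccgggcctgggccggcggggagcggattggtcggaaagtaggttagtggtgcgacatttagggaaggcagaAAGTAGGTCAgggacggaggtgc
CLOCK: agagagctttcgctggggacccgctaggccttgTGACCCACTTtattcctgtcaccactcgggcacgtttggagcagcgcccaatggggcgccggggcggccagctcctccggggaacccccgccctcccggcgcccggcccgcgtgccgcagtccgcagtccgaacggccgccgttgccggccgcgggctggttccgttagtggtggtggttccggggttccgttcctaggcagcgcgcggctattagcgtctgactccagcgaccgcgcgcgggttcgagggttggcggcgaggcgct
PER2: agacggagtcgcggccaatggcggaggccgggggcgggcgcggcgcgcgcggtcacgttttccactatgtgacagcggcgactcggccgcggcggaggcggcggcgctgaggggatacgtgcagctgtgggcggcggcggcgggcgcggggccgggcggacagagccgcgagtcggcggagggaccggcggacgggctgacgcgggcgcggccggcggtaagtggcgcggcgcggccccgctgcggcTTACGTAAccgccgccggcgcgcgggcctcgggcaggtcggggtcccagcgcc

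The NR1D2 window held 2 E-boxes and a D-box that reads TTACATAA on the printed strand. An E-box occurred in 2 of the 15 windows of the members, the other being that of PER1, and in 7.26% of the 35116 windows of all genes. The D-box occurred in 3 of the 15, windows of PER2, PER3 and NR1D2, against 1.01% of all windows. The ROR element occurred in 2 of the 15, windows of ARNTL and CLOCK, against 0.379% of all windows. The CLOCK match is on the opposite strand and reads TGACCCACTT here. The ROR element ends in the letters GGTCA, which are also the left arm of the estrogen response element. The complete estrogen response element was in no window of the 10 genes and in 0.057% of all windows. These matches describe letters in a short window, not binding.

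Counts per library ran from 12743940 to 18948283. ESR2 had 180 and 157 reads with estradiol, 165 and 100 with DMSO and 162 and 187 in untreated ERB cells of SW620, against 1 and 1 for the empty vector and 0 and 0 for untransduced SW620. SW480 cells had 142 and 185 ESR2 reads with ERB, against 2 and 4 for the empty vector and 2 and 2 for untransduced cells, and ESR1 had 0 reads in all 16 libraries. The transduced libraries labelled SW480 stood apart from parental SW480: of 300 genes at least 8-fold higher in parental SW480 than in parental SW620, the median level was 17.1 and 21.0% of parental SW480 with ERB and 2.20 and 2.096% with empty vector. Untransduced SW620 stood at 1.54 and 1.72% on this scale, close to the empty vector libraries labelled SW480. For 35 genes high in parental SW620, the median level was 4.58 and 5.59% of parental SW620 for untransduced SW480. It was 54.4 and 48.3% for SW480 carrying ERB, and 28.8 and 66.2% for the SW480 vector control. Whether the transduced cells were SW480 was not tested. Every comparison that uses the transduced SW480 libraries carries this departure, and ERB against empty vector in SW480 carries the gap between its groups. Of the 12 colon epithelium markers, EPCAM, CDX2, VIL1, KRT8, KRT18, CDH1 and HNF4A had reads in all 16 libraries, whereas CDX1 had none and KRT20 was at most 0.414 CPM. CDH17 (at most 6.23 CPM), GPA33 (at most 1.21) and LGALS4 (at most 1.15) were each at 0 in 1 library. Of the 13 fibroblast and leukocyte markers, COL1A1 (0.808 to 14.9 CPM), LUM (0.122 to 6.59), PDGFRB (0.556 to 6.01), ACTA2 (0.128 to 18.7) and CD14 (0.150 to 2.40) had reads in all 16 libraries and COL6A3 in all but 1. COL3A1 and MS4A1 were at 0 in all libraries and PTPRC in 15 of 16, and COL1A2, DCN, CD3E and CD68 were at 0 in 12 to 14. Libraries also differed in base composition: genes whose longest transcript has under 40% GC took 1.17 to 11.6% of the reads. Clock transcripts span that property, with CLOCK (37.2% GC), CRY1 (37.2%), NR1D2 (38.5%), ARNTL (43.0%) and PER3 (46.2%) below the median of tested genes, 48.6%, and NPAS2 (48.8%), PER2 (52.4%), CRY2 (57.0%), NR1D1 (59.5%) and PER1 (62.7%) above it. Values from a second fit, which subtracts a smooth trend of each library with transcript GC content and length, are therefore given beside many of the results. These offsets left part of the trend. Median log2 values under 40% and over 55% GC were still -0.43 and -0.03 for empty vector against parental SW480. They were -0.51 and -0.15 for ERB against parental SW480, and -0.29 and -0.03 for parental SW620 against parental SW480.

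In the deposited FPKM values, NPAS2 had the highest median of the members, 21.0 FPKM over the 16 libraries, with a range of 15.7 to 32.2 FPKM. The counts gave another order. CRY2 had a median of 32.6 CPM and NPAS2 of 26.7 CPM, although NPAS2 has the longer transcript (7983 against 4204 bases, longest transcript of each). The order between genes thus differs between FPKM and counts, and the reason was not tested. CRY2 (median 8.34 FPKM), ARNTL (8.01), PER1 (7.23), CRY1 (6.17) and NR1D1 (5.14) formed a middle group whose ranges overlapped. PER2 (1.403 FPKM), NR1D2 (1.26), CLOCK (0.879) and PER3 (0.851) had the lowest medians, and their ranges overlapped as well. The spread over libraries was unequal. CLOCK spanned 0.049 to 5.22 FPKM and NR1D2 spanned 0.149 to 11.5 FPKM, whereas NPAS2 stayed within a 2.05-fold range. Unless named otherwise, all later levels are CPM, counts scaled to library size with TMM factors, and are compared only between libraries.

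The activators were read as follows. ARNTL, the obligatory partner in the activating pair, was at 9.34 and 6.58 CPM with estradiol, 13.2 and 14.0 with DMSO, 4.94 and 7.11 in untreated ERB cells, 5.34 and 6.16 with empty vector and 4.03 and 3.58 in untransduced SW620. For ARNTL, the SW480 libraries had 2.40 and 5.80 CPM in ERB cells, 7.29 and 2.45 in empty vector cells and 9.51 and 20.9 in untransduced cells. The DMSO libraries were thus the highest of SW620, and both parental SW480 libraries lay above all transduced SW480 libraries. CLOCK, the partner with acetyltransferase activity, was at 3.48 and 2.32 CPM with estradiol, 9.75 and 11.9 with DMSO, 4.40 and 3.61 in untreated ERB cells, 2.496 and 5.95 with empty vector and 4.46 and 1.71 in untransduced SW620. For CLOCK, the SW480 libraries had 0.456 and 0.917 CPM in ERB cells, 3.91 and 0.779 in empty vector cells and 4.82 and 29.9 in untransduced cells. The lowest of these values rested on 4 reads, and for CLOCK the parental SW480 libraries differed from each other more than any other pair of replicates. NPAS2, the relative that can replace CLOCK, was at 19.7 and 21.2 CPM with estradiol, 24.4 and 16.7 with DMSO, 34.3 and 31.8 in untreated ERB cells, 31.8 and 33.0 with empty vector and 19.8 and 21.3 in untransduced SW620. For NPAS2, the SW480 libraries had 31.4 and 32.5 CPM in ERB cells, 28.9 and 52.8 in empty vector cells and 16.9 and 21.2 in untransduced cells. In either line, the untreated transduced libraries lay above the parental ones for NPAS2 in CPM. In FPKM this held in SW620 only. In SW480 NPAS2 was at 15.7 and 27.3 FPKM with ERB and 18.5 and 26.7 FPKM with empty vector, against 20.96 and 20.65 FPKM in parental cells.

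Of the repressors, PER1 was at 26.6 and 34.2 CPM with estradiol, 18.3 and 11.8 with DMSO, 18.1 and 20.2 in untreated ERB cells, 20.6 and 14.8 with empty vector and 13.2 and 18.2 in untransduced SW620. For PER1, the SW480 libraries had 42.1 and 33.1 CPM in ERB cells, 16.4 and 48.4 in empty vector cells and 22.1 and 13.8 in untransduced cells. The estradiol libraries were the highest of SW620 for PER1. PER2, a period gene whose loss disturbs rhythms in mice, was at 20.3 and 20.3 CPM with estradiol, 22.4 and 19.4 with DMSO, 9.70 and 9.35 in untreated ERB cells, 9.63 and 11.02 with empty vector and 13.0 and 8.95 in untransduced SW620. For PER2, the SW480 libraries had 4.33 and 10.5 CPM in ERB cells, 11.04 and 7.90 in empty vector cells and 6.11 and 6.76 in untransduced cells. All 4 libraries of treated cells, solvent included, lay above all 12 others for PER2. PER3, the remaining period paralog, was at 2.08 and 2.69 CPM with estradiol, 5.70 and 4.62 with DMSO, 3.31 and 2.74 in untreated ERB cells, 2.79 and 3.26 with empty vector and 3.91 and 1.87 in untransduced SW620. For PER3, the SW480 libraries had 1.03 and 2.83 CPM in ERB cells, 5.11 and 1.45 in empty vector cells and 3.58 and 9.73 in untransduced cells. For PER3 the DMSO libraries were the highest of SW620, and the ERB libraries of SW480 lay below the parental ones.

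CRY1, a strong repressor of the activating pair, was at 13.9 and 12.03 CPM with estradiol, 23.4 and 24.9 with DMSO, 11.3 and 13.6 in untreated ERB cells, 8.94 and 15.3 with empty vector and 14.9 and 8.64 in untransduced SW620. For CRY1, the SW480 libraries had 3.42 and 11.1 CPM in ERB cells, 14.9 and 2.34 in empty vector cells and 29.3 and 45.9 in untransduced cells. DMSO libraries were the highest of SW620 and parental libraries the highest of SW480. CRY2, its paralog, was at 55.2 and 58.8 CPM with estradiol, 32.6 and 31.1 with DMSO, 30.6 and 32.6 in untreated ERB cells, 33.4 and 28.5 with empty vector and 24.4 and 33.0 in untransduced SW620. For CRY2, the SW480 libraries had 47.1 and 32.6 CPM in ERB cells, 31.2 and 49.9 in empty vector cells and 20.1 and 12.04 in untransduced cells. The estradiol libraries were the highest of all 16 for CRY2, and parental SW480 the lowest.

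Of the nuclear receptors, NR1D1 was at 20.5 and 23.5 CPM with estradiol, 11.2 and 8.14 with DMSO, 16.4 and 16.7 in untreated ERB cells, 18.9 and 15.2 with empty vector and 14.4 and 17.9 in untransduced SW620. For NR1D1, the SW480 libraries had 38.4 and 23.7 CPM in ERB cells, 14.2 and 52.8 in empty vector cells and 14.1 and 12.7 in untransduced cells. NR1D2 was at 5.68 and 3.95 CPM with estradiol, 18.9 and 19.0 with DMSO, 6.08 and 3.35 in untreated ERB cells, 3.31 and 4.76 with empty vector and 6.14 and 1.87 in untransduced SW620. For NR1D2, the SW480 libraries had 0.570 and 1.99 CPM in ERB cells, 3.91 and 0.890 in empty vector cells and 15.9 and 56.5 in untransduced cells. In CPM the paralogs thus ran opposite ways with DMSO, where NR1D1 had its lowest levels and NR1D2 its highest within SW620. Their transcripts lie on opposite sides of the GC median. With the GC and length trend subtracted, log2 CPM of NR1D1 was 4.08 and 3.90 with DMSO. It was 4.10 and 4.16 in untreated ERB cells and 4.18 and 3.93 in parental SW620. For NR1D2 the adjusted values were 3.30 and 3.11 with DMSO, against 2.53 and 1.77 in untreated ERB cells. Several members overlap a gene on the other strand (NR1D1 with THRA, NR1D2 with NKIRAS1, CLOCK with TMEM165, PER3 with UTS2), and the sources used here do not give whether counting used the strand, so their counts are uncertain to that extent.

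**Figure D1:**
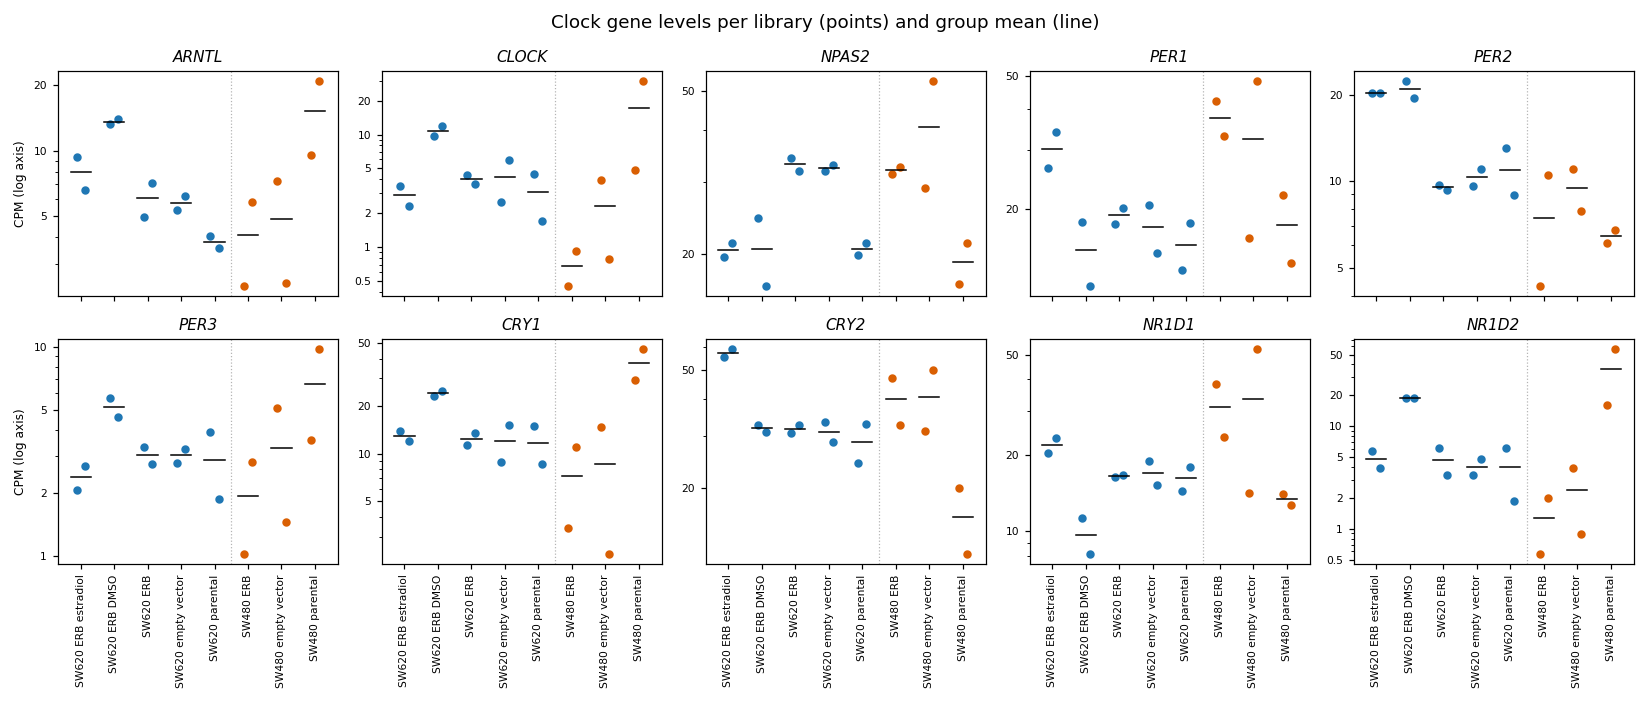
Levels of the 10 clock genes in CPM on log axes, with a point for each library and a line at the group mean, SW620 groups left of the dotted line and SW480 groups right of it. PER2 is near 20 CPM in the 4 libraries of treated SW620. NR1D2, CLOCK and CRY1 are highest with DMSO within SW620, and NR1D2 and CRY1 are highest in parental cells within SW480.

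The first comparison asked what ERB adds to an empty vector. In SW620, 0 of the 10 clock genes were called at an adjusted p under 0.05 (edgeR quasi-likelihood test, Benjamini-Hochberg over all 17464 genes), and 0.00573% of all genes were, which is ESR2 alone. Without adjustment, 0 of the 10 had p under 0.05, and DESeq2 and limma-voom called 0 too. The ERB and empty vector libraries of SW620 overlapped for all 10 members, whereas 22.5% of all genes had groups that did not. The log2 fold changes of the members ran from -0.12 (PER2, SE 0.40) to 0.22 (NR1D2, SE 0.77), with a median of 0.03 against -0.01 over all genes tested. The SE is smallest for NPAS2 (log2 fold change 0.03, SE 0.32) and largest for CLOCK (-0.08, SE 0.82), so that only large changes of CLOCK could have been detected.

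In SW480, ERB against empty vector gave 0 called members as well, where 1.1% of all genes were called, all of them higher. Again 0 members had an unadjusted p under 0.05, and DESeq2 and limma-voom called 0. The largest value was that of CLOCK, at 0.456 and 0.917 CPM with ERB and 3.91 and 0.779 CPM with empty vector, a log2 fold change of -1.75 (SE 0.97, adjusted p = 0.596). With the offsets CLOCK was at -0.70 (SE 0.49), CRY1 at 0.67 (SE 0.37) instead of -0.25, and CRY2 at -0.40 (SE 0.16, unadjusted p = 0.027, adjusted p = 0.232 by edgeR), and 0 members were called. All 10 members overlapped between the groups, and 22.8% of all genes did not. The empty vector libraries of SW480 were far apart: for NR1D1 they stood at 14.2 and 52.8 CPM, and for CRY1 at 14.9 and 2.34 CPM. Library II of that pair also held 8259 CPM summed over amino acid and ER stress genes (ATF4 targets such as ASNS and TRIB3, and chaperones), against 1761 CPM in library I, and a TMM factor of 0.586 against 0.978; the part of this in the clock values was not tested. The ERB libraries also kept more of the parental level of the SW480 genes, 17.1 and 21.0% with ERB against 2.20 and 2.096% with empty vector, so ERB and that gap cannot be told apart. The difference of the ERB effect between the lines (SW480 minus SW620) was called for 0 members and for 0.189% of all genes by edgeR, with 0 members at an unadjusted p under 0.05 and 0 called by DESeq2. It was largest for CLOCK, at -1.67 (SE 1.27, adjusted p = 1), and with the offsets CLOCK was at -0.62 (SE 0.60) and CRY1 at 0.63 (SE 0.50).

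The second comparison took estradiol against DMSO in SW620 carrying ERB, the test of the ligand. With all 16 libraries in the fit, 0 members were called by edgeR, and 0% of all genes; 4 members had an unadjusted p under 0.05, and DESeq2 called 0 members. The groups did not overlap for 8 of the 10 members, 3 higher and 5 lower with estradiol, but they did not overlap for 80.7% of all tested genes either. CRY2 was at 55.2 and 58.8 CPM with estradiol, against 32.6 and 31.1 with DMSO, a log2 fold change of 0.84 (SE 0.34, adjusted p = 0.238). NR1D1 gave 1.18 (SE 0.50, adjusted p = 0.238) and PER1 gave 1.01 (SE 0.47, adjusted p = 0.238). On the low side stood NR1D2 at -1.98 (SE 0.78) and CLOCK at -1.90 (SE 0.84), both with an adjusted p of 0.238 by edgeR. NPAS2 (-0.01, SE 0.32) and PER2 (-0.04, SE 0.39) overlapped between the groups.

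The sign of these values followed transcript GC content. The 5 members below the GC median of tested genes had log2 values of -0.77 to -1.98, and the 3 above 55% GC had values of 0.84 to 1.18. Over all genes the median was -1.45 for the 2341 genes under 40% GC and 0.93 for the 4935 genes over 55% GC. With GC and length offsets the values became 0.18 (SE 0.16) for CRY2, 0.31 (SE 0.22) for NR1D1, 0.10 (SE 0.18) for PER1, -0.69 (SE 0.33) for NR1D2 and -0.36 (SE 0.34) for CLOCK, and CRY1 turned from -0.89 to 0.46 (SE 0.34). A fit of the SW620 libraries alone, whose groups were tighter, called 8 members in edgeR, where 53% of all genes were called: CRY2, NR1D1 and PER1 higher, and ARNTL, CLOCK, PER3, CRY1 and NR1D2 lower. With the offsets, the edgeR fit of all 16 libraries called 0 members, 0 of them with an unadjusted p under 0.05, and 0% of all genes. In the SW620 libraries alone with the offsets 0 members were called, 3 of them with an unadjusted p under 0.05, where 17.7% of all genes were called. The estradiol libraries held 7944 and 8170 CPM of amino acid and ER stress genes, against 5294 and 5240 CPM with DMSO, and their part in the clock values was not tested.

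**Figure D2:**
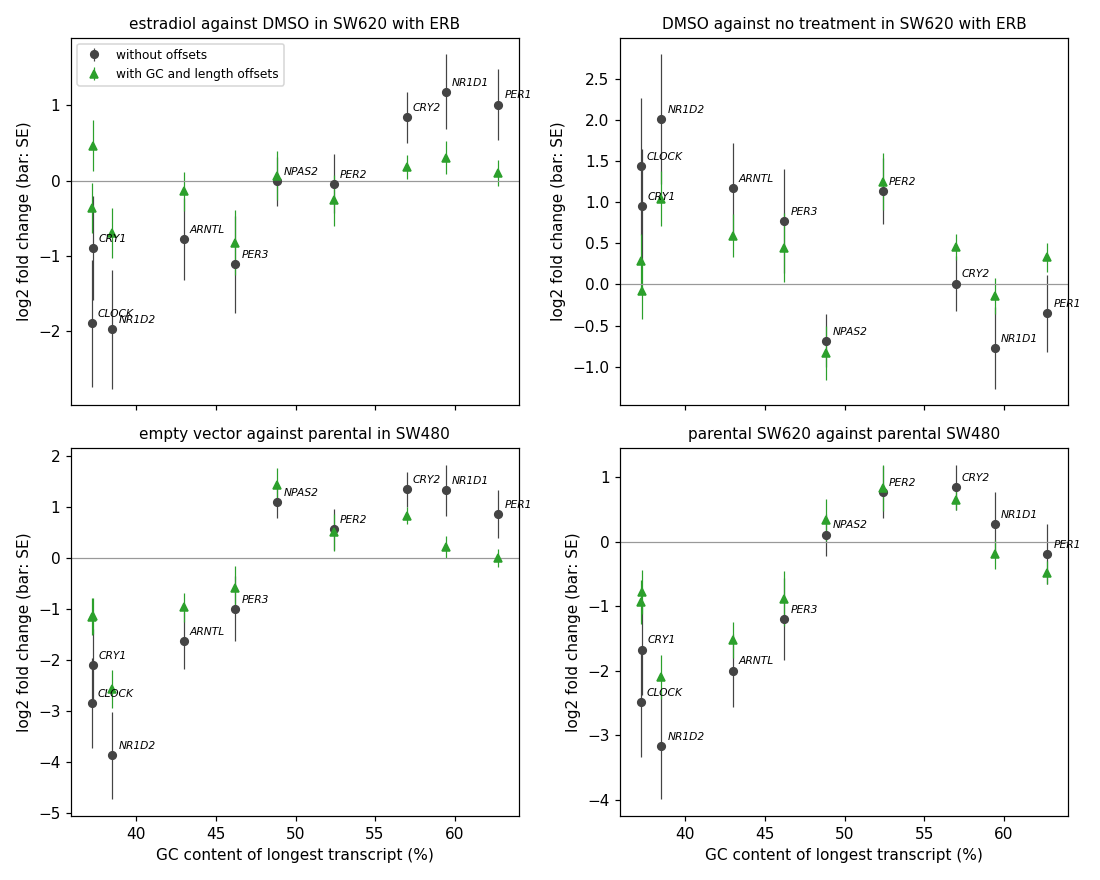
Log2 fold change of the 10 clock genes (vertical axis, bar: SE) against GC content of the longest transcript (horizontal axis, percent) in 4 comparisons, from edgeR fits of all 16 libraries without offsets (circles) and with GC and length offsets (triangles). In estradiol against DMSO the circles run from -1.98 for NR1D2 to 1.18 for NR1D1 and the triangles from -0.83 for PER3 to 0.46 for CRY1, closer to 0 for the genes other than PER2 and NPAS2, whereas PER2 in DMSO against no treatment stays at 1.13 and 1.25.

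The third comparison took DMSO against no treatment in SW620 carrying ERB. PER2 was at 22.4 and 19.4 CPM with DMSO, against 9.70 and 9.35 without treatment, and NR1D2 at 18.9 and 19.0 CPM, against 6.08 and 3.35. In the edgeR fit of all libraries 0 of the 10 members were called, where 6.15% of all genes were; 2 members, PER2 and NR1D2, had an unadjusted p under 0.05. PER2 had a log2 fold change of 1.13 (SE 0.40, adjusted p = 0.099) and NR1D2 of 2.01 (SE 0.78, adjusted p = 0.127). DESeq2, which called 15.5% of all genes, called both, at 1.19 (SE 0.36, adjusted p = 0.011) for PER2 and 2.06 (SE 0.77, adjusted p = 0.048) for NR1D2. With GC and length offsets edgeR called the same 2 members, where 20.6% of all genes were called: PER2 at 1.25 (SE 0.35, adjusted p = 0.024) and NR1D2 at 1.04 (SE 0.33, adjusted p = 0.042). The value for PER2 thus differed little between the fits, whereas that for NR1D2, the transcript of lower GC content, was 2.01 without and 1.04 with the offsets.

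The groups did not overlap for 8 of 10 members between DMSO and no treatment, against 81.3% of all genes. NPAS2 was at 24.4 and 16.7 CPM with DMSO, against 34.3 and 31.8 without treatment (log2 fold change -0.68, SE 0.32, adjusted p = 0.190 by edgeR). ARNTL gave 1.17 (SE 0.55, adjusted p = 0.185) and CLOCK 1.43 (SE 0.83, adjusted p = 0.266). In the SW620 libraries alone 7 members were called, where 48.8% of all genes were. With the offsets in addition 5 members were called, where 46.6% of all genes were: ARNTL (0.58), PER2 (1.26), CRY2 (0.47) and NR1D2 (1.03) higher with DMSO, and NPAS2 (-0.82) lower. Treated and untreated libraries also differed in the stress genes, which summed to 5294 and 5240 CPM with DMSO and 1501 and 1603 CPM without treatment. The DMSO libraries had 7.39 and 8.48% of reads in genes under 40% GC, against 4.19 and 4.05% without treatment; the labels give no culture time or harvest for the untreated cells, so the solvent and the handling of the cells cannot be told apart.

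Estradiol against no treatment, a comparison added after the values were known, shares its untreated libraries with the preceding one. PER2 was at 20.3 and 20.3 CPM with estradiol, against 9.70 and 9.35 without treatment, with a log2 fold change of 1.09 (SE 0.40, adjusted p = 0.209 by edgeR) and an adjusted p of 0.035 by DESeq2, which called 6.25% of all genes. CRY2 gave 0.85 (SE 0.34, adjusted p = 0.254), and with the offsets 0.63 (SE 0.16, adjusted p = 0.018). edgeR called 0 members without the offsets, 2 of them (PER2 and CRY2) with an unadjusted p under 0.05, where 1.73% of all genes were called, and 1 member, CRY2, with them, where 15.5% were. In the SW620 libraries alone 3 members were called, where 20.9% of all genes were. With the offsets in addition 4 members were called, where 38.3% of all genes were: PER1 (0.44), PER2 (0.997) and CRY2 (0.64) higher with estradiol, and NPAS2 (-0.75) lower.

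The fourth comparison took the vector alone. In SW620, 0 members and 0% of all genes were called between empty vector and parental cells by edgeR, 0 members had an unadjusted p under 0.05, and DESeq2 called 0 members. NPAS2 was at 31.8 and 33.0 CPM with empty vector, against 19.8 and 21.3 in parental cells (log2 fold change 0.66, SE 0.32, adjusted p = 1), and ARNTL gave 0.59 (SE 0.56, adjusted p = 1). These were the 2 members whose groups did not overlap, against 24.5% of all genes. ERB against parental cells of SW620, which uses the same parental libraries, gave 0.69 for NPAS2 (SE 0.32, adjusted p = 1), 0.66 for ARNTL (SE 0.56, adjusted p = 1) and 0 called members by edgeR and DESeq2, with 0 at an unadjusted p under 0.05, where 0.00573% of all genes were called.

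In SW480, empty vector against parental cells gave 6 called members, 2 higher and 4 lower by edgeR, where 30.9% of all genes were called, 14.9% higher and 16% lower. NR1D2 fell to 3.91 and 0.890 CPM with empty vector, against 15.9 and 56.5 CPM in parental cells, a log2 fold change of -3.88 (SE 0.86, adjusted p = 0.007). CLOCK (-2.85, SE 0.88, adjusted p = 0.030), CRY1 (-2.11, SE 0.72, adjusted p = 0.043) and ARNTL (-1.63, SE 0.56, adjusted p = 0.045) fell as well. CRY2 rose to 31.2 and 49.9 CPM, against 20.1 and 12.04 in parental cells (1.34, SE 0.35, adjusted p = 0.015), and NPAS2 rose to 28.9 and 52.8 CPM, against 16.9 and 21.2 (1.10, SE 0.33, adjusted p = 0.027). In FPKM both overlapped between the groups. NPAS2 was at 18.5 and 26.7 FPKM with empty vector, against 20.96 and 20.65 in parental cells. CRY2 was at 6.85 and 5.67 FPKM, against 6.22 and 3.19. PER1 (0.85), PER2 (0.56), PER3 (-1.002) and NR1D1 (1.32, adjusted p = 0.060) did not pass. The members that fell were all below the GC median, and with the offsets the same 6 were called at smaller size for NR1D2 (-2.58), CLOCK (-1.15), CRY1 (-1.14), ARNTL (-0.97) and CRY2 (0.82) and at 1.43 for NPAS2, where 39.8% of all genes were called.

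These calls depended on single libraries, that of NR1D2 on parental library II only. Without parental library II, which had the highest share of reads in genes under 40% GC (11.6%), 0 members were called, where 11.8% of all genes were, and without empty vector library II 1 member, NR1D2, was, where 15.7% of all genes were. Without empty vector library I, 9 members were called, where 58.1% of all genes were. A fit of the SW480 libraries alone in edgeR called 0 members, 2 of them with an unadjusted p under 0.05, where 4.39% of all genes were called, and with the offsets it called NR1D2 (-2.59, SE 0.44, adjusted p = 0.008), where 17.2% were. The empty vector libraries had 2.20 and 2.096% of the parental level of the SW480 genes, where untransduced SW620 had 1.54 and 1.72%. Vector and identity of the cells therefore cannot be told apart.

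ERB against parental cells in SW480 shares those parental libraries, and 6 members were called, 1 higher and 5 lower, where 44.4% of all genes were called, 19.5% higher and 24.9% lower. NR1D2 fell to 0.570 and 1.99 CPM with ERB, against 15.9 and 56.5 in parental cells (-4.77, SE 0.91, adjusted p = 0.004 by edgeR), and CLOCK fell to 0.456 and 0.917 CPM, against 4.82 and 29.9 (-4.60, SE 0.99, adjusted p = 0.007). CRY1 (-2.36, adjusted p = 0.024), ARNTL (-1.88, adjusted p = 0.023) and PER3 (-1.76, adjusted p = 0.048) fell too, and CRY2 rose (1.31, adjusted p = 0.014). With the offsets 4 members were called, where 38.4% of all genes were: NR1D2 (-2.62), CLOCK (-1.86) and ARNTL (-0.82) lower and NPAS2 (1.06) higher, against a median of -0.24 over all genes, which was -0.13 without them. Without ERB library I, 0 members were called, where 4.44% of all genes were, and without parental library II 1 member was, NR1D2, where 7.7% of all genes were. The SW480 libraries alone gave 0 called members, 3 of them with an unadjusted p under 0.05, where 0% of all genes were called, and with the offsets they gave NR1D2 (-2.64, SE 0.46, adjusted p = 0.020), where 10.6% of all genes were called.

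The difference of the vector effect between the lines, SW480 minus SW620, was called for 0 members by edgeR, where 7.2% of all genes were called, although 4 had an unadjusted p under 0.05. NR1D2 gave -3.88 (SE 1.13, adjusted p = 0.059), CLOCK -3.29 (SE 1.20, adjusted p = 0.110) and ARNTL -2.22 (SE 0.79, adjusted p = 0.104). DESeq2 called these 3, where it called 16.3% of all genes, and with the offsets edgeR called NR1D2 (-2.55, adjusted p = 0.004), ARNTL (-1.53, adjusted p = 0.017) and CRY2 (0.71, adjusted p = 0.043), where 20.3% of all genes were called.

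The fifth comparison set the lines against each other. In parental cells, 2 members were lower in SW620 than in SW480, where 18% of all genes were called by edgeR, 11.2% lower in SW620. NR1D2 was at 6.14 and 1.87 CPM in SW620, against 15.9 and 56.5 in SW480 (-3.17, SE 0.82, adjusted p = 0.019). ARNTL was at 4.03 and 3.58 CPM in SW620, against 9.51 and 20.9 in SW480 (-1.997, SE 0.57, adjusted p = 0.029). CLOCK gave -2.48 (SE 0.86, adjusted p = 0.065) and CRY1 -1.67 (SE 0.71, adjusted p = 0.127), without passing. With the offsets NR1D2 (-2.10, SE 0.34, adjusted p = 0.0005), ARNTL (-1.53, SE 0.28, adjusted p = 0.001) and CRY2 (0.65, SE 0.16, adjusted p = 0.008) were called, where 32.8% of all genes were. Without parental SW620 library II or parental SW480 library II, 0 members were called, where 7.41% and 10.2% of all genes were, and without parental SW620 library I the call of ARNTL was lost, where 11% of all genes were called. With empty vector, SW620 against SW480 gave 0 called members by edgeR and DESeq2 and 0 at an unadjusted p under 0.05, where 0.326% of all genes were called. With ERB it gave 0 by either tool and 2 members, CLOCK and NR1D2, at an unadjusted p under 0.05, where 2% were called. In those pairs the sign for NR1D2 was positive, 0.72 (SE 0.80, adjusted p = 0.745) with empty vector and 1.83 (SE 0.84, adjusted p = 0.210) with ERB, which with the offsets were 0.45 (SE 0.39) and 0.70 (SE 0.41). ARNTL gave 0.23 (SE 0.55, adjusted p = 0.880) and 0.54 (SE 0.56, adjusted p = 0.489).

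**Figure D3:**
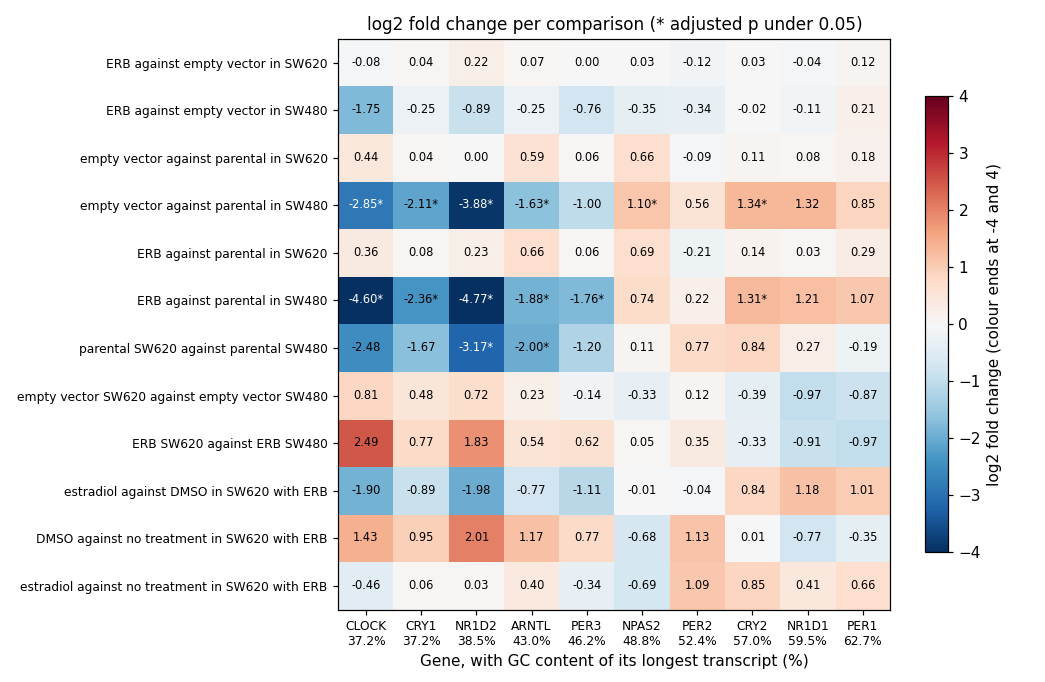
Log2 fold change of the 10 clock genes (columns, ordered by GC content of the longest transcript) in 12 comparisons (rows), from edgeR fits of all 16 libraries without offsets, with a star where the adjusted p is under 0.05. Stars stand for 6 genes in each of the SW480 comparisons with parental cells and for NR1D2 and ARNTL between the parental lines, and none stands in the rows of ERB against empty vector or of estradiol.

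Beyond the 10 members, 21 further genes of the clock were looked up, and 16 were tested; RORB, HLF, CIART, FBXL21 and USP2 were too low. ERB against empty vector called 0 of the 16 in either line by edgeR and by DESeq2, with 0 in SW620 and 1 in SW480, NFIL3, at an unadjusted edgeR p under 0.05. Estradiol against DMSO called 0 by either tool, with 2 (TEF and CSNK1D) at an unadjusted edgeR p under 0.05. In the SW620 libraries alone it called 8 of 16, where 53% of all genes were called, and 3 with the offsets in addition, where 17.7% were. DMSO against no treatment called 2, 1 in each direction, where 2.39% of all genes were called higher and 3.76% lower. NFIL3, the D-box repressor, rose to 45.8 and 59.6 CPM with DMSO, against 16.8 and 21.5 without treatment (1.46, SE 0.39, adjusted p = 0.048 by edgeR). TIMELESS, named after a fly clock gene and known in mammals for its part at replication forks, fell to 167 and 177 CPM, against 429 and 436 (-1.33, SE 0.27, adjusted p = 0.018). Both kept their call with the offsets, at 1.32 for NFIL3 and -1.24 for TIMELESS, and lost it without any 1 of the 4 libraries compared, where at most 0.0709% of all genes were called. Estradiol against no treatment called 0 of the 16 by edgeR and by DESeq2, with 2 (NFIL3 and TIMELESS) at an unadjusted edgeR p under 0.05. It called 3 with the offsets, where 15.5% of all genes were called, 3 in the SW620 libraries alone, where 20.9% were, and 6 there with the offsets, where 38.3% were.

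RORA, an activating ROR receptor, separated the parental lines most. It was at 0.744 and 0.156 CPM in parental SW620, against 5.87 and 28.7 in parental SW480 (-5.19, SE 0.78, adjusted p = 0.0007 by edgeR). It was the only 1 of the 16 called between parental lines, where 11.2% of all genes were called lower in SW620. Empty vector against parental SW480 called 3 of 16, all lower: RORA (-5.95), ARNTL2 (-2.24), a paralog of ARNTL, and CCRN4L (-0.96), the rhythmically expressed nocturnin gene. Over all genes 30.9% were called there and 16% lower. The count was 6 with the offsets, where 39.8% of all genes were called, and 1 in the SW480 libraries alone, where 4.39% were. Without parental library II or empty vector library II it was 1, RORA, and without empty vector library I it was 8. RORA was at 0.225 and 0.334 CPM in those empty vector libraries, which is 3 reads in each and near its level in SW620, so its fitted value rests on few reads. Its vector effect differed between the lines (-5.20, SE 1.25, adjusted p = 0.027), the only call among the 16 genes there, where 4.2% of all genes were called lower. That call was lost without parental SW620 library II, parental SW480 library II, empty vector SW480 library II or either empty vector library of SW620. ERB against parental SW480 called 6 of 16, 1 higher and 5 lower, where 44.4% of all genes were called, 19.5% higher and 24.9% lower. With the offsets it called 5, where 38.4% of all genes were called. The SW480 libraries alone gave 0 by edgeR, with and without the offsets, and 3 at an unadjusted p under 0.05 in either case, where 10.6% and 0% of all genes were called. Without parental library II or ERB library I it called 1, RORA, and without parental library I it called 10. The higher one was the PER kinase CSNK1D (0.94). The lower ones were RORA (-5.24), ARNTL2 (-2.80), the kinase CSNK1A1 (-1.58), the ubiquitin ligase subunit FBXW11 (-1.42) and the deacetylase SIRT1 (-2.498). The median over the 16 genes was -0.41 with empty vector and -0.52 with ERB, against -0.11 and -0.13 over all genes tested.

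**Figure D4:**
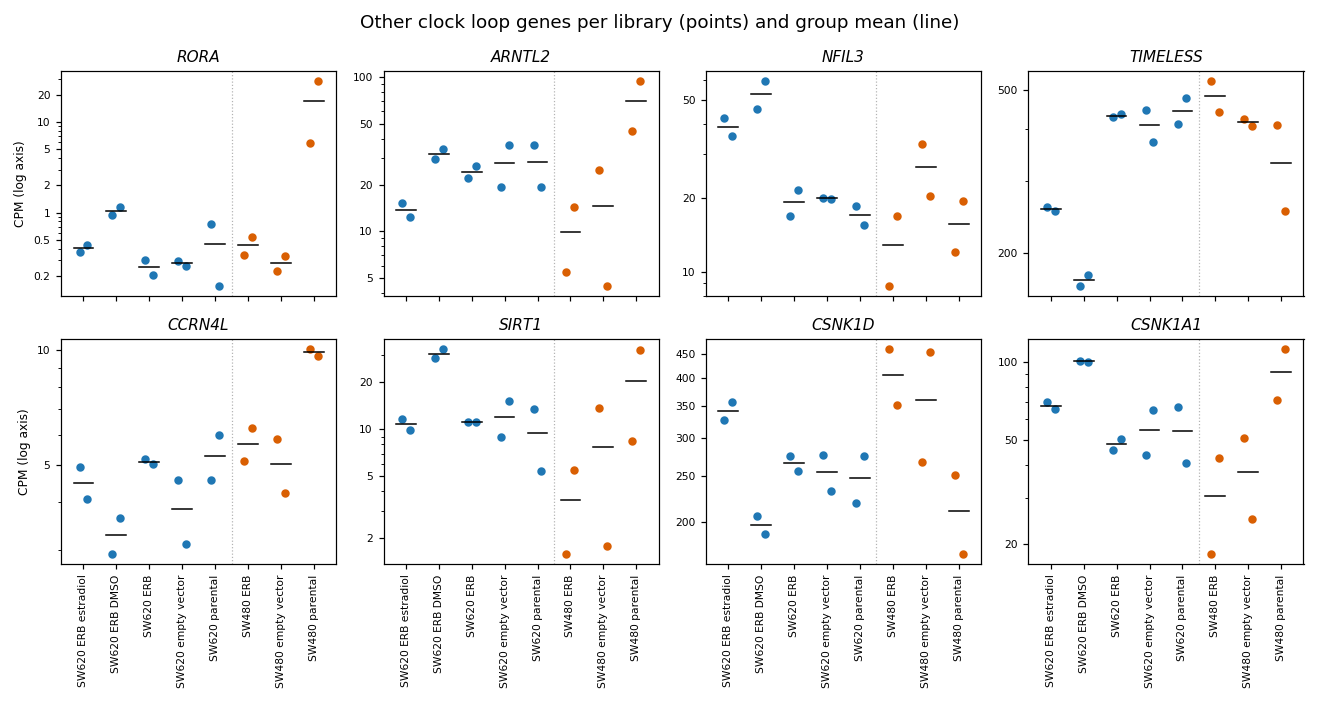
Levels in CPM on log axes of 8 further clock genes, with a point for each library and a line at the group mean, SW620 groups left of the dotted line and SW480 groups right of it. RORA is above 5 CPM in the parental SW480 libraries and at most 1.15 CPM in the other 14, and NFIL3 is highest and TIMELESS lowest in SW620 with DMSO.

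For each member called in at least 1 comparison, the genes with the most similar pattern were sought among those with a mean of 5 CPM or more, by the root mean square difference of centred log2 CPM over the 16 libraries. CRY2 lay closest to SLC35A2 (0.11) and PARS2 (0.12), where its own SD over the libraries was 0.56. NPAS2 lay closest to CLK2 (0.17) and KIAA0141 (0.24; own SD 0.45). CLOCK lay closest to MBNL1 (0.22) and CCNT2 (0.22; own SD 1.44), and CRY1 to TRIM37 and ZDHHC23 (0.22 each; own SD 1.05). NR1D2 lay closest to PDE4D and FZD6 (0.30 each; own SD 1.64), ARNTL to RP11-427H3.3 (0.23) and LNX2 (0.24; own SD 0.85), and PER3 to OSBPL3 (0.19) and AZI2 (0.20; own SD 0.75). None of these neighbours was another clock member. Only the closest of all genes above that level were kept, so this cannot show whether the members vary together. The genes share libraries, depth and, for those named beside CLOCK, CRY1, NR1D2 and PER3, a transcript GC content of 37.0 to 43.3%.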

How the data were processed

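RNA was selected for poly(A) and sequenced from stranded libraries, per the labels' protocols. The authors deposited read counts per gene (63677 genes) and FPKM values per gene (63655); 0 further columns held per-sample values. The submitters' processing notes list TopHat2 2.0.4, Picard 1.29, SAMtools, Cufflinks 2.1.1 and HTSeq 0.6.1 with build GRCh37, without saying which made which table. The deposited counts were whole numbers and 0 lines named no gene. The deposited FPKM values, scaled by the authors for length and depth, were used for levels between genes and as an alternative. Total counts were 12743940 to 18948283 per library, and 3 reads equal 0.158 to 0.235 CPM.

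Labels gave the groups and the replicate numbers. Counts were filtered with edgeR's filterByExpr (17464 genes), scaled with TMM (factors 0.586 to 1.36) and fitted with the quasi-likelihood model of edgeR 4.0.16 in R 4.3.3 over 8 groups of 2 libraries. The threshold was a Benjamini-Hochberg adjusted p under 0.05 over all genes tested in a comparison, two-sided. Nothing was adjusted over the clock genes alone. The SE given for edgeR is the size of the log2 fold change divided by the square root of the F statistic of its test. The SE given for DESeq2 is the one that tool reports. Transcript GC content, known for 98.0% of tested genes, came from a GENCODE annotation and promoter windows from RefSeq GRCh38.p14; neither is the build of the files. The GC and length offsets used natural splines with 5 degrees of freedom.

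The members, the list of further clock genes and the tests were chosen with earlier results of these data known. To the 13 comparisons of the design, estradiol against no treatment was added after the data were seen, as were the offsets. All 10 members are named. Of the further clock genes those called are named, at most 6 per comparison by smallest p, and some items are not reported here. Alternatives were RLE size factors, no filter or 1 CPM in 4 libraries, DESeq2 1.42.0, voom and trend fits of limma 3.58.1 on counts and on log2(FPKM + 1) or log2(FPKM + 0.1), fits of the groups or line of a comparison alone, a replicate block, and leaving out each library, where the lone library left in a group is assumed to vary like the other groups. The scripts were tested on simulated counts.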

Additional observations from a re-analysis of the deposited data

Results flagged for a closer look

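RORA, an activating ROR receptor of the clock, differed between the lines in its response to the vector: the log2 difference of the effects, SW480 minus SW620, was -5.20 (SE 1.25, adjusted p = 0.027, edgeR interaction test over all genes). RORA was at 0.225 and 0.334 CPM with empty vector, against 5.87 and 28.7 CPM in parental cells of SW480, and at 0.290 and 0.259 CPM with empty vector, against 0.744 and 0.156 CPM in parental SW620. These values rest on 3 and 3 reads against 95 and 657 reads in SW480, and on 5 and 5 reads against 12 and 2 in SW620. With GC and length offsets the difference was -3.34 (SE 0.85, adjusted p = 0.016). The parental SW480 libraries are the high ones. The empty vector libraries labelled SW480 had 2.20 and 2.096% of the parental level of the SW480 genes, where untransduced SW620 had 1.54 and 1.72%. Vector and cell identity therefore cannot be told apart. The difference was not called without parental SW620 library II, parental SW480 library II, empty vector SW480 library II or either empty vector library of SW620.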

How the results depend on the processing

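Counts of called members are given here per comparison. They were 0 in every fit run for ERB against empty vector in SW620 and SW480, for the difference of the ERB effect between lines and for either transduced SW620 group against parental SW620. Percentages in parentheses are the share of all genes called in the same fit. For empty vector against parental SW480 the 6 (30.9%) became 1 on log2(FPKM + 1), filtered (24%) or not (12.6%), on log2(FPKM + 0.1) (23.6%), in the groups of the comparison alone (7.74%) and in the line alone with offsets (17.2%), 0 in the line alone (4.39%), 5 without the low-count filter (23%) and 7, with NR1D1, in DESeq2 (40.5%). For ERB against parental SW480 the 6 (44.4%) became 3 with either FPKM pseudocount (34.2% and 33%) and in the groups alone (25.6%), 1 on FPKM without a filter (13.3%) and in the line alone with offsets (10.6%), 0 in the line alone (0%), 4 with the offsets (38.4%) and 5 in limma-voom (45.7%). For the parental lines the 2 (18%) became 4 without the filter (14.6%) and in DESeq2 (23.6%), 3 with the offsets (32.8%), 1 with either FPKM pseudocount (15.9% and 14.5%), and 0 on FPKM without a filter (9.91%) and in the groups alone (9.28%). For the difference of the vector effect the 0 (7.2%) became 4 without the filter (11%), 3 in DESeq2 (16.3%) and with the offsets (20.3%), and 1 in limma-voom (9.41%). Estradiol against DMSO gave 2 without the filter (6.31%) and 8 in the groups alone (63.6%) and in the line alone (53%). DMSO against no treatment gave 1 without the filter (9.2%), 2 in DESeq2 (15.5%) and with the offsets (20.6%), 8 in the groups alone (63.7%), 7 in the line alone (48.8%) and 5 in the line alone with offsets (46.6%). Estradiol against no treatment gave 1 in DESeq2 (6.25%) and with the offsets (15.5%), 5 in the groups alone (47%), 3 in the line alone (20.9%) and 4 in the line alone with offsets (38.3%). SW620 against SW480 with ERB gave 2 without the filter (9.68%) and 1 in the groups alone (6.91%). The cause of these moves was not tested. Leaving out each library gave 0 to 9 called members for empty vector against parental SW480, 0 to 6 for ERB against parental SW480, 0 to 4 for the parental lines, 0 to 6 for the difference of the vector effect, 0 to 3 for the lines with empty vector, and 0 for each other comparison.

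The replicate numbers showed no uniform pairing of the libraries. Over 28 pairs of groups the differences between replicates I and II correlated at -0.74 to 0.66, with a median of -0.05 and 9 over 0.1. These correlations cannot settle whether the libraries were paired. With a replicate block, empty vector against parental SW480 gave 3 called members and ERB against parental SW480 gave 5, and the other counts were as without it. Among the alternative values of single members, 2166 kept their side of the threshold, 99 lost a call, 95 gained one and 0 changed sign after a call. Each alternative was set beside the edgeR fit of all 16 libraries without offsets, and the alternatives were not set beside each other. CRY1 in estradiol against DMSO was called lower in the SW620 libraries alone (-0.88), whereas its value with the offsets was positive. CLOCK had as few as 4 reads in 1 library, and in the edgeR fit of all 16 libraries without offsets the SE of the log2 values of CLOCK, CRY1 and NR1D2 was 0.69 to 1.27.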
